A study of Mus musculus with 8 samples.

Results

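Transcripts for the enzymes of cholesterol and fatty acid synthesis were measured in whole lungs of mice with a K-ras-driven lung adenocarcinoma, with and without the STAT3 inhibitor TTI-101. The set held 31 of the 54532 genes in the count table and was chosen by gene name from the 2 pathways, 18 in a sterol arm and 13 in a fatty acid arm, by a rule on names that was set with earlier results of these data known. All 31 were among the 17138 genes with enough reads to be tested. All 8 mice were CC-LR mice on a C57BL/6 background, which carry a Cre-activated K-rasG12D allele and Cre recombinase at the club cell secretory protein (CCSP) locus, so mutant K-ras was expressed in lung epithelium and every control carried it too. The drug was given for 4 weeks, from 10 to 14 weeks of age, to 4 mice, 4 control mice were also 14 weeks old, and each mouse gave 1 poly(A) library. The dose and route for the sequenced mice, and what the controls received, were not tied to these samples in the sources used here, and both sexes were used in the study.

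Cholesterol is built from acetyl-CoA through mevalonate, farnesyl diphosphate, squalene and lanosterol. Fatty acids are built from cytosolic acetyl-CoA and malonyl-CoA by fatty acid synthase and are then desaturated and elongated. The transcription factor SREBP-2, encoded by Srebf2, is the main activator of the sterol genes, and SREBP-1c, a product of Srebf1, of the fatty acid genes. In lung, alveolar type 2 cells make the lipid of surfactant and use both pathways.

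Levels are given as CPM, a gene's share of its library's counts on a fixed scale, after trimmed-mean (TMM) scaling, each as the mean ± SD of 4 mice where groups are compared. Library totals ran from 16075855 to 26873509 counts, and the deepest library of each group was mouse 1. Control mouse 4 had an unusual library, with a score of 101.1 on the leading principal component where no other exceeded 17.9, and 5.56% of its counts were mitochondrial against 2.01% to 2.85%. For the fatty acid arm and the members that moved most with it, values are therefore also given without it. Marker lists and most genes outside the members are given only with it. Lung identity was plain in all 8 libraries, with the surfactant gene Sftpc at 16673 CPM or more and the club cell gene Scgb1a1 at 10013 CPM or more. Xist was at 400.2 CPM or more in mice 1 and 2 of each group and at 2.11 CPM or less in mice 3 and 4, so both sexes stood in both groups. Stat3 itself, the target of the drug at the protein level, had similar transcript levels in the groups (257 ± 30.0 CPM in control and 244 ± 26.8 CPM in treated mice, n = 4 each). Transcript counts do not report on the activity of the STAT3 protein.

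In the comparison of treated with control lungs, none of the 31 genes passed an adjusted p under 0.05. In edgeR's quasi-likelihood test, 0 of 17138 genes did so (0% of genes tested), with 1132 at an unadjusted p under 0.05. In limma-voom 0 genes did so and in DESeq2 4 (0.0126%), none of them a member. At an unadjusted p under 0.05, edgeR gave 2 members, Fdft1 and Me1, which is 6.45% of the 31 against 6.61% of all genes tested. Both were lower in treated lungs, as were 3.58% of all genes at that threshold, with 3.02% higher. At an unadjusted p under 0.01 there were 0 members, against 0.677% of all genes. Limma-voom gave the same 2 members against a background of 6.38%, and DESeq2 gave Me1 alone against 5.32%. The members called were therefore no more frequent than genes at large. The data did set limits on the size of a change. For 28 of the 31 genes (90.3%) the 95% interval of the log2 fold change lay within 1 on either side of 0, that is, a change of less than 2-fold, against 65.1% of all genes tested. The 3 genes with wider intervals were Fdps, Me1 and Scd1.

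**Figure D1:**
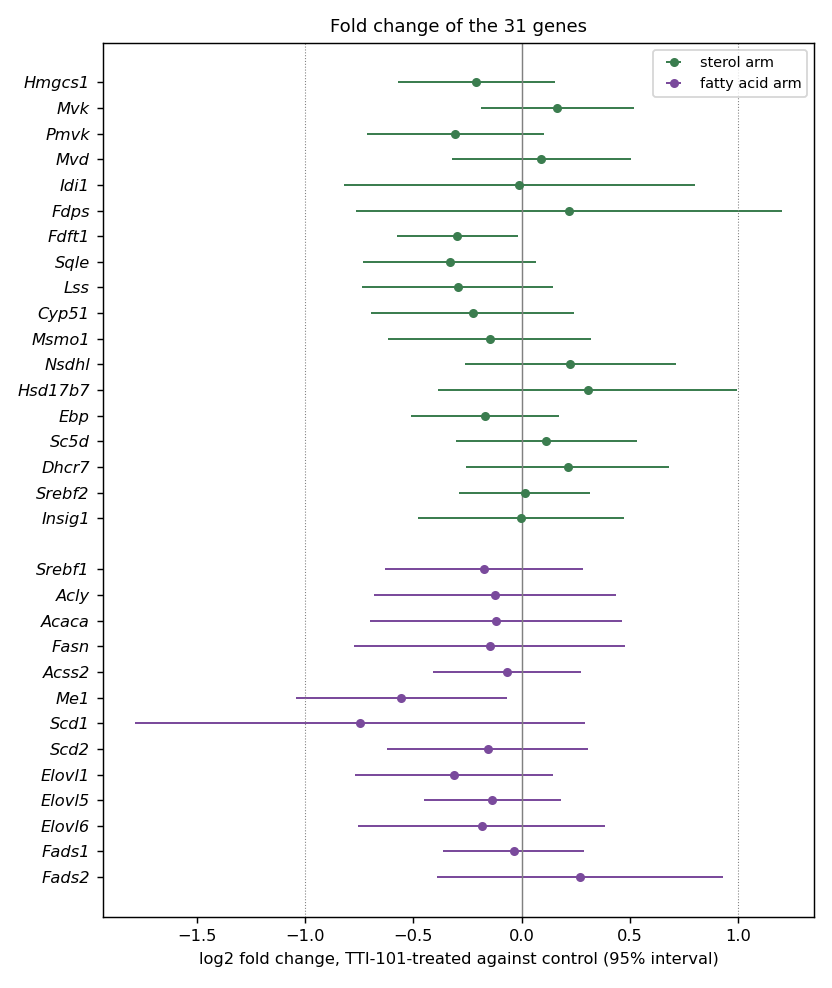
Log2 fold change of each of the 31 genes in TTI-101-treated against control lungs (n = 4 mice each), with bars for the 95% interval from the edgeR fit and dotted lines at 1 and -1. Only the bars of Fdft1 and Me1 leave out 0, and only those of Fdps, Me1 and Scd1 cross a dotted line.

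The sterol arm was centred on no change. Of its 18 genes, 8 had higher and 10 lower estimates in treated lungs, with a median log2 fold change of -0.01 beside 0.00 for all genes. The mean log2 CPM of the arm was 5.12 ± 0.23 in control and 5.09 ± 0.22 in treated mice (SD, n = 4), a difference of -0.03 that is well within the spread of either group. One sterol gene had an unadjusted p under 0.05 and called members were again close to the background (5.56% of the arm).

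For both regulators the group means lay close together. Srebf2 (chr15:82147181-82205379) had 225, 215, 225 and 245 CPM in control mice 1 to 4 and 192, 241, 236 and 250.02 CPM in treated mice 1 to 4. With a log2 fold change of 0.01 and a 95% interval of -0.29 to 0.32, it had the narrowest range over the 8 mice of the 18 genes, 1.30-fold. Insig1 (chr5:28071363-28078662), the SREBP target whose protein holds the SREBP complex in the endoplasmic reticulum, had group means of 87.7 ± 25.6 and 87.5 ± 17.1 CPM and a 95% interval of -0.48 to 0.47. Its values were 126, 74.5, 78.5 and 72.0 CPM in control and 102, 62.9, 93.9 and 91.4 CPM in treated mice. The lowest value was in treated mouse 2 and the highest in control mouse 1, so single mice differed by 2.00-fold while the group means were nearly equal.

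Among the 6 genes that lead from acetoacetyl-CoA to farnesyl diphosphate, 3 estimates were higher and 3 lower. Hmgcs1, the HMG-CoA synthase, was at 129, 92.9, 96.8 and 97.5 CPM in control and at 96.3, 72.1, 84.1 and 107 CPM in treated mice, which overlap (log2 fold change -0.21, SE 0.16, edgeR adjusted p = 0.707). The kinases Mvk and Pmvk had estimates of 0.17 and -0.31 and the decarboxylase Mvd one of 0.09. Idi1, the isopentenyl diphosphate isomerase, had the widest range of the arm, from 9.43 CPM in treated mouse 2 to 34.6 CPM in control mouse 1, or 3.67-fold. Its group means, 22.6 ± 8.61 and 22.5 ± 10.1 CPM, were nearly equal. Fdps, the farnesyl diphosphate synthase, was counted at only 1.53 to 5.32 CPM, with 24 to 145 reads a library. It was 5.32 CPM in control mouse 1 against 1.53 to 1.73 CPM in the other 3 controls, and its log2 fold change of 0.22 became 0.90 without that library (edgeR unadjusted p = 0.0215). Of the 50-base stretches of Fdps transcripts, 26.2% also occur in 8 other genes, among them Gm43738, which overlaps it on the same strand, and 25.3% of those of Idi1 do, so some of their reads could have been assigned elsewhere or left uncounted. For Hmgcs1 the share was 11.6%, over 125 other genes.

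The 3 genes that make squalene and close it to lanosterol all had lower estimates in treated lungs, and of these only Fdft1 had an unadjusted p under 0.05. Fdft1 (chr14:63145150-63179578), squalene synthase, commits farnesyl diphosphate to sterols. It was at 54.4, 49.6, 58.4 and 63.2 CPM in control mice and at 44.6, 43.1, 47.7 and 48.0 CPM in treated mice. Every treated value was below every control value, and Fdft1 was the only member whose groups did not overlap, 1 of 31 where 1.43% of all genes tested were separated in that direction and 2.96% in either. Its log2 fold change was -0.30 with an SE of 0.13 and a 95% interval of -0.58 to -0.02, an unadjusted p of 0.039 and an adjusted p of 0.657 in edgeR. With the groups fully separate, the exact permutation test over the 70 assignments of mice could only give its smallest p, 0.0286. It therefore adds nothing to the separation. Sqle, squalene epoxidase, had 62.6 ± 11.96 CPM in control and 49.7 ± 8.42 CPM in treated mice, a log2 fold change of -0.33 (SE 0.18, edgeR adjusted p = 0.657). Lss, lanosterol synthase, had 34.6 ± 6.82 and 28.2 ± 6.06 CPM, a log2 fold change of -0.30 (SE 0.20, edgeR adjusted p = 0.680). For both, the groups overlapped, and without treated mouse 2 the estimates were -0.21 and -0.17. The mean log2 CPM of the 3 genes was 5.62 ± 0.22 in control and 5.31 ± 0.21 in treated mice.

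Fdft1 kept an unadjusted p under 0.05 in 3 of the 8 fits with 1 library left out, and its estimate ran from -0.35 to -0.23 over them. The weakest, -0.23, came without control mouse 4, where its unadjusted p was not under 0.05. Its exons share 18.3% of their bases with Ctsb on the opposite strand, and 26.5% of its 50-base stretches occur in Ctsb or Gm6781. Ctsb itself had a log2 fold change of -0.08 (edgeR adjusted p = 0.897).

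The 7 genes that convert lanosterol to cholesterol showed no common direction. Cyp51, Msmo1 and Ebp had estimates of -0.23, -0.15 and -0.17, which are for the demethylase, the C4-methyl oxidase and the sterol isomerase. Nsdhl, Hsd17b7, Sc5d and Dhcr7 had estimates of 0.22, 0.31, 0.12 and 0.21, which are for the C4 decarboxylase, the 3-ketosterol reductase, the desaturase and the last reductase of the path. Adjusted p in edgeR was 0.745 or more for all 7, and every one of their groups overlapped.

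The sterol genes had high and low mice in common. Control mouse 1 had the highest value of the 8 mice in 9 of the 18 genes and was above the 8-mouse mean in 15. Treated mouse 2 had the lowest value in 10 and was above the mean in 4, and control mouse 2 was above it in 1. The arm's mean log2 CPM was 5.46 in control mouse 1 and 4.76 in treated mouse 2, with the other 6 mice between 4.94 and 5.26. Members of a pathway in the same lung are not independent measurements, and control mouse 1 was also the deepest library. Treated mouse 1, nearly as deep at 25920509 counts, was at 5.13. The part of depth in these values was not tested.

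**Figure D2:**
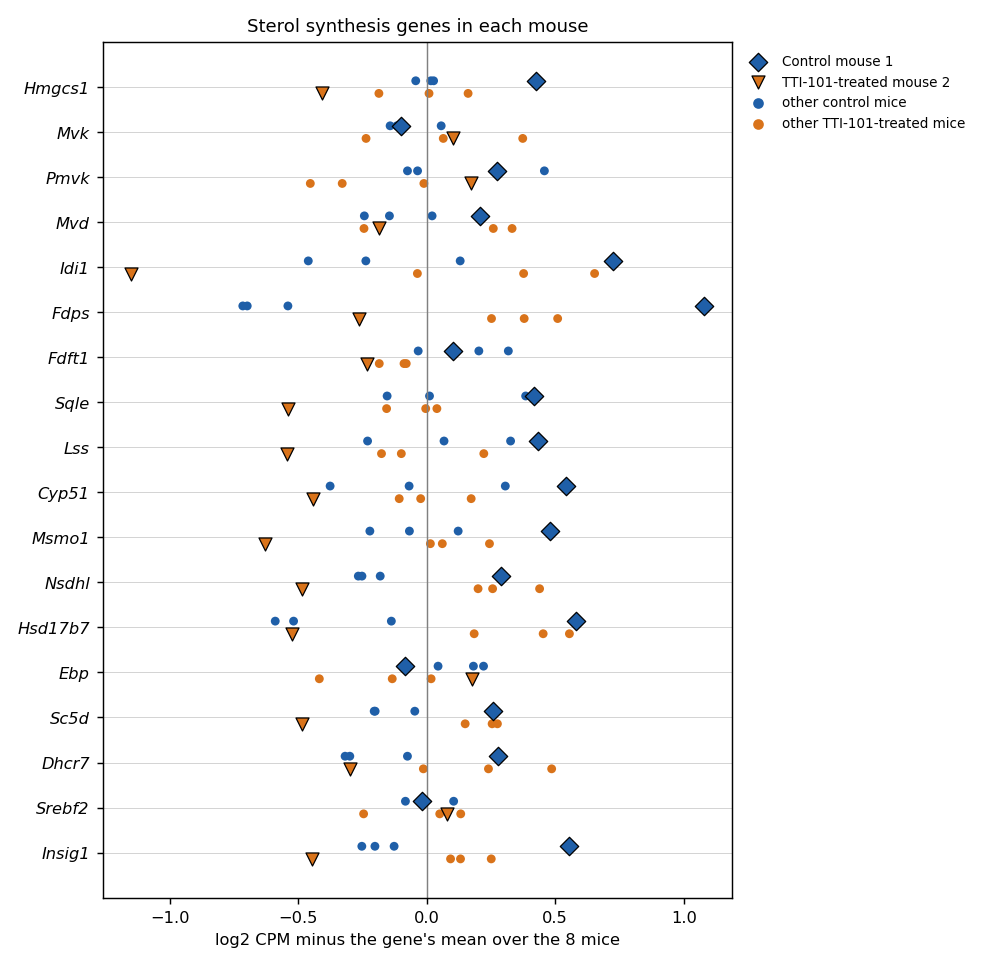
Log2 CPM of the 18 sterol genes in each of the 8 mice, as the difference from the gene's mean over all mice, with control mice in blue and TTI-101-treated mice in orange. Control mouse 1 (diamonds) lies to the right for 15 of the genes and treated mouse 2 (triangles) lies lowest for 10.

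Promoter sequences were taken from the RefSeq promoter table (GRCm38.p6). The 250 bases before the members' starts were searched on both strands for letters of motifs known from sterol-regulated promoters. These were CCAAT, the box bound by NF-Y, CACGTG, an E-box, and TCACNCCAC, a form of the sterol regulatory element. The table held 25 of the 31 members, and entries for Fdps, Fdft1, Sqle, Scd1, Scd2 and Fads1 were not found. CCAAT was present for 15 of 15 sterol genes and 6 of 10 fatty acid genes, against 37.5% of 27025 genes in the table. CACGTG was present for 5 of 25 members (Hsd17b7, Sc5d, Dhcr7, Insig1 and Elovl5) against 6.86% of genes. TCACNCCAC was present for Hmgcs1 alone, against 1.22% of genes. Only exact matches to these letters were counted, so other forms of the sterol regulatory element would be missed. CACGTG reads the same on both strands, and a match is a run of letters and not a measured binding site. The members were chosen as genes of these pathways, and any part of the motifs in their levels by mouse was not tested.

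The windows shown are from early and late sterol enzymes, the 2 sterol regulators and Fasn for contrast, with motif letters in capitals, ATTGG being CCAAT on the other strand. They are Hmgcs1 (chr13:119690101-119690350, plus strand), Mvd (chr8:122443423-122443672, minus strand), Sc5d (chr9:42264301-42264550, minus strand), Insig1 (chr5:28071162-28071362, plus strand), Srebf2 (chr15:82147019-82147180, plus strand) and Fasn (chr11:120824548-120824797, minus strand). Bases that an annotated exon covers were left off the windows of Insig1 and Srebf2.
Hmgcs1: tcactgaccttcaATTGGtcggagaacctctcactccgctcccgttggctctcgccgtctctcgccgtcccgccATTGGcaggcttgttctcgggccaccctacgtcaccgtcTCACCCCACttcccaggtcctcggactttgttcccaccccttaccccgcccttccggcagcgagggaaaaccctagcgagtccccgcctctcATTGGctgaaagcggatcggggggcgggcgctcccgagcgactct
Mvd: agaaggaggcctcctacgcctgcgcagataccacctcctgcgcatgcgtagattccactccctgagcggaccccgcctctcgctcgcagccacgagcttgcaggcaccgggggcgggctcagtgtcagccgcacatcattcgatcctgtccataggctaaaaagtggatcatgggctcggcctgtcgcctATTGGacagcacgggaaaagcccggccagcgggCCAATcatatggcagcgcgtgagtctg
Sc5d: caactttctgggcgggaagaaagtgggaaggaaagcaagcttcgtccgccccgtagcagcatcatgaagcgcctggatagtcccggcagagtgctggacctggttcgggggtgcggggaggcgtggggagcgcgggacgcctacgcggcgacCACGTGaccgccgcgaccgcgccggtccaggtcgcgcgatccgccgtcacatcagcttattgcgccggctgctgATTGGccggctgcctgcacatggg
Insig1: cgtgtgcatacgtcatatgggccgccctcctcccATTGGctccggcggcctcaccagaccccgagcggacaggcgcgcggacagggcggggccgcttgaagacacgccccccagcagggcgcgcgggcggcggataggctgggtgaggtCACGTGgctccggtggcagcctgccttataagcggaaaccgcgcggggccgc
Srebf2: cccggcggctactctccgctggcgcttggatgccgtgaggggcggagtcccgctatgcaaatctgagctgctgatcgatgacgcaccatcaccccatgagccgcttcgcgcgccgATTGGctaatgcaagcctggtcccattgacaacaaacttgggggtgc
Fasn: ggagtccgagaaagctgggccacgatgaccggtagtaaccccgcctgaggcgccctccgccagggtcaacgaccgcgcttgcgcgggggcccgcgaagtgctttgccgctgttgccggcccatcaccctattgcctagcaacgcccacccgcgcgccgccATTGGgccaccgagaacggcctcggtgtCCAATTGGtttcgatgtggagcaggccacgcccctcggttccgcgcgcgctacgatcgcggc
Hmgcs1 holds CCAAT in 3 places and the sterol regulatory element letters in 1, starting 137 bases before the gene start. Mvd holds CCAAT in 2 places, 60 and 27 bases before it. In Sc5d and Insig1 a CACGTG stands in the same window as a CCAAT. Fasn holds CCAAT in 3 places, of which the last 2 overlap as CCAATTGG.

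In the fatty acid arm, 12 of the 13 genes had lower estimates in treated lungs, and Fads2 alone was higher. The median log2 fold change was -0.15 beside 0.00 for all genes, and the mean log2 CPM was 7.69 ± 0.39 in control and 7.54 ± 0.10 in treated mice, a difference of -0.15 against a control SD of 0.39. These values rested on a single library. Without control mouse 4 the median was 0.02, the difference in mean log2 CPM was 0.01 and only 5 of the 13 estimates were lower, whereas the count was 12 in 5 of the other 7 fits with a library left out and 10 or 11 in the remaining ones. The 13 genes come from the same 8 lungs, so their shared direction is not 13 separate observations.

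Control mouse 4 had the highest value of all 8 mice in 11 of the 13 genes, Elovl5 and Fads2 being the others. Control mouse 1 was above the 8-mouse mean in 11, control mouse 3 in 4 and control mouse 2 in 1. The mean log2 CPM of the arm was 7.86, 7.31, 7.43 and 8.16 in control mice 1 to 4 and 7.56, 7.45, 7.48 and 7.68 in treated mice 1 to 4. The control values thus lay on both sides of all treated values, and 9 of the 13 genes had a wider fold range among controls than among treated mice. In the sterol arm this held for 5 of 18.

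**Figure D3:**
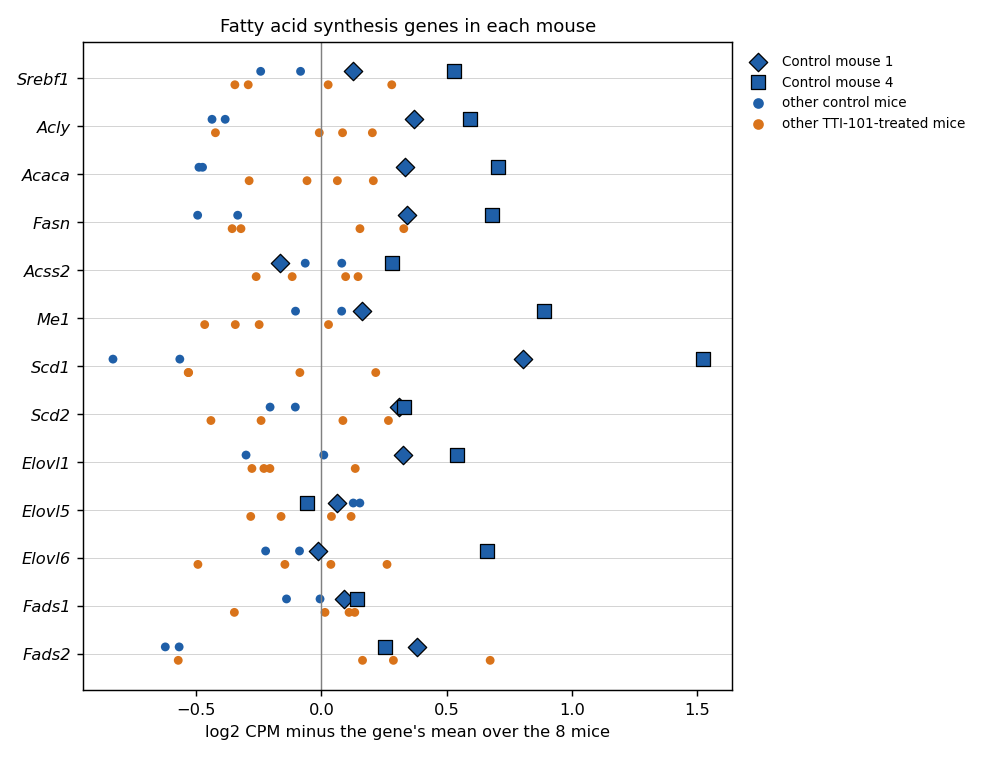
Log2 CPM of the 13 fatty acid genes in each of the 8 mice, as the difference from the gene's mean over all mice, with control mice in blue and TTI-101-treated mice in orange. Control mouse 4 (squares) is farthest to the right for 11 genes and control mouse 1 (diamonds) is above the mean for 11, while control mice 2 and 3 (circles) are above the mean for 1 and 4.

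The stearoyl-CoA desaturases put the first double bond into saturated fatty acids. Scd1 (chr19:44394451-44407709), which had the widest range among controls of the 13 genes, was at 5123, 1648, 1983 and 8423 CPM in control mice 1 to 4 and at 2764, 2032, 2029.6 and 3409 CPM in treated mice 1 to 4. Control mice 1 and 4 were above and control mice 2 and 3 below every treated mouse, a 5.11-fold range among controls against 1.68-fold among treated mice. The group means were 4294 ± 3166 and 2559 ± 664 CPM, with a log2 fold change of -0.75 (SE 0.47) and a 95% interval of -1.79 to 0.29 (edgeR adjusted p = 0.666). It was -0.18 without control mouse 4 and -1.01 without control mouse 2 (edgeR unadjusted p = 0.0429 in the latter). Scd1 was also the most abundant member per length of gene model, with 888 CPM per 1000 bases in control lungs, ahead of Elovl1 at 292 and Scd2 at 169.6.

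Scd2 (chr19:44293676-44306864), the neighbouring paralog, differed less between the groups, at 925 ± 175 CPM in control and 829 ± 181 CPM in treated mice (log2 fold change -0.16, SE 0.21). The ratio of Scd1 to Scd2 CPM was 4.80, 2.20, 2.47 and 7.78 in control mice and 3.02, 3.20, 2.78 and 3.29 in treated mice. The range of this ratio among controls contained all 4 treated values. Shared 50-base stretches made up 4.56% of Scd1 and 3.97% of Scd2, so most of either gene can be told from its paralog.

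The supply of carbon and reducing power is the work of Acly, Acss2 and Me1. Me1 (chr9:86581371-86695953), the cytosolic malic enzyme that yields NADPH, had the lowest unadjusted p of all 31 genes. It was at 167, 139, 158 and 277 CPM in control mice and at 126, 153, 108 and 118 CPM in treated mice. Treated mouse 2 lay above control mouse 2, so the groups overlapped by that pair. The log2 fold change was -0.56 (SE 0.22, 95% interval -1.04 to -0.07), with an unadjusted p of 0.0294 and an adjusted p of 0.657 in edgeR, and the exact permutation p was 0.0571. Without control mouse 4 the estimate was -0.29, and over the 8 fits that left out a library it ran from -0.67 to -0.29 with an unadjusted p under 0.05 in 4. Of its 50-base stretches, 28.3% occur in Gm48795, Gm7049 or Gm7329. Acly, the ATP citrate lyase, had 299 ± 107 CPM in control and 274 ± 48.2 CPM in treated mice, and Acss2, the acetyl-CoA synthetase, 37.2 ± 5.11 and 35.5 ± 4.59 CPM.

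Fasn (chr11:120805846-120824547), the synthase itself, was at 1051, 589.8, 659 and 1332 CPM in control and at 665, 924, 649 and 1043 CPM in treated mice. As for Scd1, the highest and the lowest of the 8 mice were both controls. Its log2 fold change was -0.15 (SE 0.28, 95% interval -0.77 to 0.48, edgeR adjusted p = 0.886), and it was 0.11 without control mouse 4. Acaca, acetyl-CoA carboxylase, the rate-limiting step before it, had an estimate of -0.12, and 0.16 without that library. Of the 50-base stretches of Acaca, 30.4% occur in other genes, 335 of them. Srebf1 had 240 ± 58.1 CPM in control and 213 ± 44.1 CPM in treated mice (log2 fold change -0.17, and 0.01 without control mouse 4). The ratio of Srebf1 to Srebf2 CPM was 0.870 to 1.31 in control and 0.724 to 1.12 in treated mice, which overlap.

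**Figure D4:**
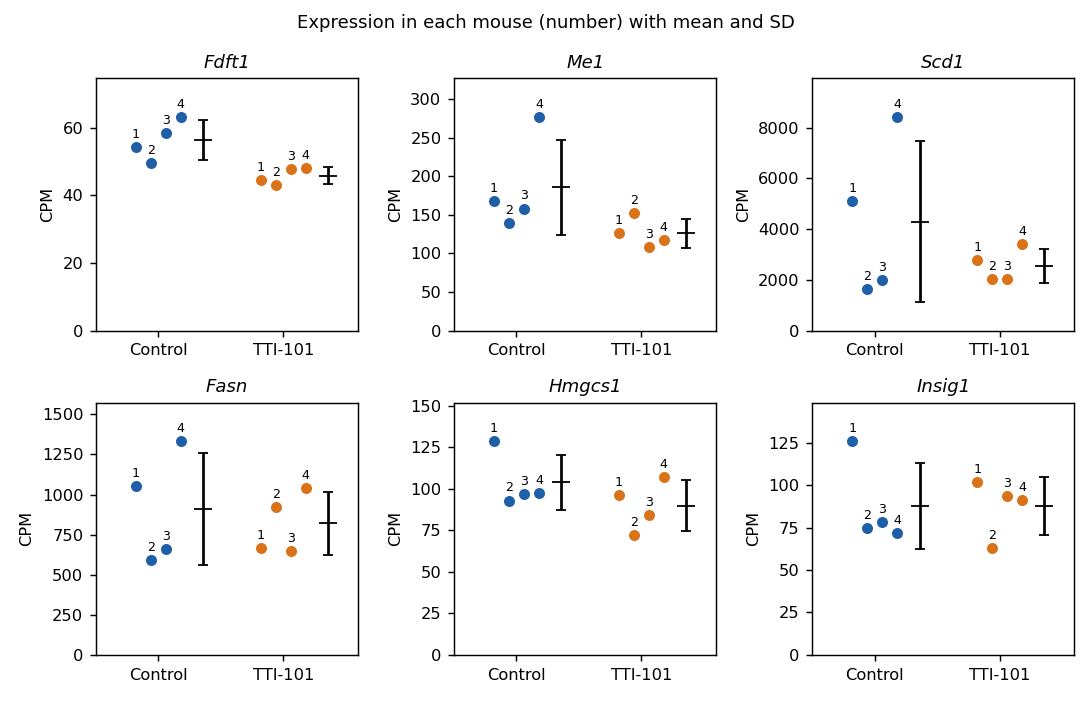
CPM of 6 of the genes in each mouse, numbered 1 to 4, with the mean and SD of each group beside the points. Fdft1 alone has separate groups, control mouse 4 is highest for Me1, Scd1 and Fasn, and control mouse 1 is highest for Hmgcs1 and Insig1.

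The elongases had lower estimates in treated lungs, all 3 without passing the test. Elovl1, which extends very long saturated chains, was at 796 ± 198 CPM in control and 641 ± 88.7 CPM in treated mice (log2 fold change -0.31, SE 0.21, edgeR adjusted p = 0.674). Without control mouse 4 its estimate was -0.16. Elovl5 and Elovl6, which act on polyunsaturated and on palmitoyl chains, had estimates of -0.14 and -0.18. The desaturases of polyunsaturated fatty acids split, with Fads1 at -0.04 and Fads2 at 0.27 (SE 0.30). Fads2 ran from 24.9 to 49.9 CPM in control and from 25.8 to 61.0 CPM in treated mice.

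Markers of several cell types differed between the same libraries. All 12 alveolar type 2 markers had lower estimates in treated lungs, with a median log2 fold change of -0.42 and none with an unadjusted p under 0.05. Their summed level was 46208 to 85162 CPM in control and 36466 to 65767 CPM in treated mice, highest in control mouse 4. The mean log2 CPM of these markers was 10.9, 10.4, 10.6 and 11.3 in control mice 1 to 4, the same order of mice as for the fatty acid arm, and 10.4, 10.9, 10.2 and 10.3 in treated mice 1 to 4, where the order differed. The fatty acid arm minus the type 2 markers was -3.07, -3.12, -3.18 and -3.19 in control mice, a span of 0.121, and -2.81, -3.44, -2.67 and -2.63 in treated mice, a span of 0.810. For the sterol arm minus the same markers, the span was 0.843 in control and 1.16 in treated mice. In whole lung, fewer cells of a type and less RNA per cell cannot be told apart, and the part of type 2 cells in these values was not tested.

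Adipocyte markers lay in the other direction, with 11 of 12 estimates higher in treated lungs, 6 of them with an unadjusted p under 0.05 in edgeR against 6.61% of all genes, and a median of 1.23 on the log2 scale. Lep, Aqp7 and Ucp1 were too low to test. Their summed level was 76.4 to 295 CPM in control and 159.6 to 583 CPM in treated mice, lowest in control mouse 4, where the defining gene Adipoq was at 0.128 CPM. All 12 mitosis genes had lower estimates, 8 of them with an unadjusted p under 0.05 in edgeR against 6.61% of all genes, at a summed 87.6 to 187 CPM in control and 62.3 to 96.3 CPM in treated mice, again highest in control mouse 4. Alveolar macrophage markers, from cells that clear surfactant lipid, summed to 537 to 1405 CPM in control and 762 to 1064 CPM in treated mice, with 9 of 12 estimates higher and the highest level in control mouse 1. The part of these cells in the synthesis genes was not tested.

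**Figure D5:**
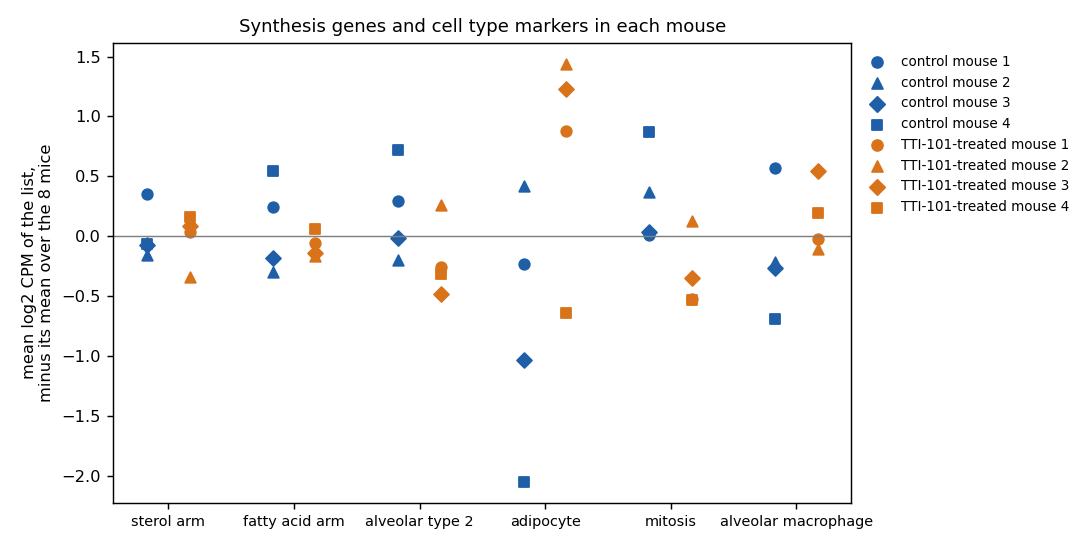
Mean log2 CPM of the sterol arm, the fatty acid arm and 4 marker lists in each mouse, as the difference from the list's mean over the 8 mice, with control mice in blue and TTI-101-treated mice in orange. Control mouse 4 (blue square) is highest for the fatty acid arm, the alveolar type 2 markers and the mitosis genes and lowest for the adipocyte and alveolar macrophage markers.

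Genes around the 2 pathways were listed apart from the members. Of 19 tested genes for SREBP processing and other sterol steps, 0 had an unadjusted p under 0.05 in edgeR, 6 had higher and 13 lower estimates, and the median was -0.12. The lowest p values were those of Soat1, which esterifies cholesterol (log2 fold change -0.51, unadjusted p = 0.066), and of Mbtps1, the first protease to cut SREBPs (0.23, unadjusted p = 0.0942, both edgeR). Soat1 was at 538 CPM in control mouse 4 against 266 to 333 CPM in the other controls, and its estimate without that library is not given. Scap, which escorts SREBPs, had an estimate of 0.23 and Insig2 one of -0.19. Neither the processing machinery nor its targets passed the test.

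Liver X receptors, encoded by Nr1h2 and Nr1h3, sense oxysterols and turn on genes for cholesterol efflux. Of 9 tested genes of this list, 8 had higher estimates in treated lungs and 1 a lower one, beside 49.4% lower among all genes tested. The median log2 fold change was 0.29. The list's mean log2 CPM overlapped between the groups, at 6.83, 6.60, 6.58 and 6.31 in control mice 1 to 4 and 6.76, 6.75, 7.12 and 6.88 in treated mice 1 to 4. Nr1h2 was at 114, 105, 107 and 104 CPM in control and at 122, 141, 186 and 132 CPM in treated mice, so that all treated values were above all control values, as in 1.53% of genes tested. Its log2 fold change was 0.44 (SE 0.15, unadjusted p = 0.0154 and adjusted p = 0.657 in edgeR), between 0.30 and 0.51 with any library left out, and its unadjusted p stayed under 0.05 in all 8 of those fits. Pltp, the phospholipid transfer protein, had 248 ± 116 CPM in control and 450 ± 148 CPM in treated mice (log2 fold change 0.86, SE 0.35, adjusted p = 0.657 in edgeR). It was lowest in control mouse 4, at 112 CPM, and had an unadjusted p under 0.05 in 2 of 8 fits with a library left out. The 2 genes with an unadjusted p under 0.05 were 22.2% of this list of 9, beside 6.61% of all genes tested. Abca1 and Abcg1, the sterol exporters, had estimates of 0.06 and 0.29.

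Of 27 tested genes for other steps of fatty acid and glycerolipid synthesis, 13 had higher and 14 lower estimates, with a median of -0.01. An unadjusted p under 0.05 in edgeR was reached by 3 of the 27, or 11.1%, beside 6.61% of all genes tested. Acsl3 is an acyl-CoA synthetase of lipid droplets and the endoplasmic reticulum. It was at 36.9, 37.9, 37.0 and 86.5 CPM in control and at 30.3, 32.2, 23.7 and 24.9 CPM in treated mice. For Acsl3 the groups did not overlap, with every treated value lower, as in 1.43% of genes tested. Its log2 fold change was -0.83 (SE 0.28, unadjusted p = 0.0145 and adjusted p = 0.657 in edgeR). Without control mouse 4, which was more than 2-fold above the other controls, it was -0.41, with an unadjusted p still under 0.05. Elovl7, an elongase, had an estimate of -0.69 (unadjusted p = 0.0353 in edgeR), which kept an unadjusted p under 0.05 in 3 of 8 fits. Thrsp, a lipogenic factor abundant in fat, was the gene called in the other direction, at 4.89 ± 2.30 CPM in control and 10.9 ± 4.92 CPM in treated mice (log2 fold change 1.15, SE 0.43, unadjusted p = 0.0236 in edgeR, under 0.05 in 6 of 8 fits with a library left out). Its lowest values in either group, 2.37 and 4.38 CPM, were in mouse 4, as were those of Adipoq. Of 19 tested genes of fatty acid oxidation, 12 had higher and 7 lower estimates with a median of 0.03. At an unadjusted p under 0.05 in edgeR, 5.26% of this list was called, beside 6.61% of all genes tested. Only Etfb, a subunit of the electron transfer flavoprotein, had a p under that threshold (log2 fold change -0.72, unadjusted p = 0.0329 in edgeR). It kept that in 2 of 8 fits with a library left out, and Etfdh, the next gene by p, had an estimate of 0.25 (unadjusted p = 0.172 in edgeR).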

How the data were processed

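RNA from 8 frozen CC-LR lungs, 4 of them from mice given TTI-101, was extracted, poly(A) selected with a stranded kit and sequenced as paired ends by a provider, which ran its own pipeline. The submitters' processing notes name STAR, DESeq2 and the build mm10. The counting tool and its strand setting are not given in the sources used here. The authors deposited whole-number counts per Ensembl gene with no normalization, and no other values were used.

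The counts were analysed in R 4.3.3. In edgeR 4.0.16, filterByExpr (minimum count 10) kept 17138 of 54532 genes, libraries were scaled by TMM, and robust quasi-likelihood F-tests were adjusted by Benjamini-Hochberg over all genes tested, with no covariate. Standard errors and 95% intervals used the posterior quasi-likelihood dispersion. Log2 CPM had a prior count of 2. The exact permutation test of single genes was two-sided over 70 assignments, with a smallest p of 0.0286. The members, pathway lists and marker lists were chosen with earlier results of these data known. All members were named, and of the other pathway lists the genes with an unadjusted p under 0.05 or, with fewer than 2 of these, the 2 lowest p values. Of the cell type lists, only genes that the comparison of libraries needed were named. A few other genes of these lists (Scap, Insig2, Nr1h3, Abca1 and Abcg1) were named for their roles after their values were seen.

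Alternatives were DESeq2 1.42.0, limma-voom (limma 3.58.1), scaling by DESeq2's size factors or by library totals, other gene filters (none, 10 counts or more in each library, or protein-coding genes), a replicate block, an Xist covariate, and omission of each library in turn. The fits were also run on simulated counts with changes larger than any member's estimate. That run does not test them for smaller changes. Overlapping exons and shared stretches of 50 bases came from GENCODE M21, and promoters from RefSeq (GRCm38.p6). A motif was counted for a gene if any of its listed starts had it. Total counts of 16075855 to 26873509 set the counting precision. Markers of motile cilia, red blood cells, B cells, club cells, alveolar type 1 cells and cardiac muscle were also listed. At an unadjusted p under 0.05 in edgeR, 6 of 13, 5 of 6, 12 of 12, 1 of 6, 0 of 7 and 0 of 8 were called, beside 6.61% of all genes tested, lower in cilia and club cell lists and higher in red cell and B cell lists.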

Additional observations from a re-analysis of the deposited data

Results flagged for a closer look

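Among 66 groups of 4 mice examined for a single distant value (Dixon's test at its 95% critical value), 5 exceeded it. Chance flags about 1 in 20 groups, here 3.30 expected. Of the 5, 4 were high values of sterol genes in control mouse 1. For Fdps the gap made up 0.948 of the range of the controls, with 5.32 CPM against 1.53 to 1.73 CPM in the other 3. For Insig1 it was 0.879 (126 CPM against 72.0 to 78.5 CPM), for Hmgcs1 0.871 (129 CPM against 92.9 to 97.5 CPM) and for Nsdhl 0.871 (25.8 CPM against 17.5 to 18.6 CPM). These genes come from the same lung and are not independent of each other. The remaining one was Elovl1 in treated mouse 2, with a gap of 0.846 of the range (772 CPM against 580.4 to 610.0 CPM in the other treated mice). The causes were not tested.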

How the results depend on the processing

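No member passed an adjusted p under 0.05 in any fit. Over 9 alternatives with all libraries, 266 of 279 member estimates kept their direction, and 227 of 248 did with 1 library left out, while 19 of the 31 members had no change of sign in any fit. The estimates that changed sign with all libraries were all near 0. Idi1 became 0.001461 with DESeq2, 0.03007 with library totals and 0.003507 with protein-coding genes. Insig1 became 0.006926 with DESeq2, 0.01411 with limma-voom, 0.003526 with DESeq2's size factors, 0.02901 with library totals, 0.005688 with no filter, 0.000516 with at least 10 counts in every library, 0.006009 with protein-coding genes, 0.01296 with a replicate block and 0.01302 with Xist as a covariate. Fads1 became 0.005073 with library totals.

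The sterol arm's count at an unadjusted p under 0.05, 1 in the reported fit, was 0 with DESeq2, 0 with library totals, 0 with no filter and 2 with the replicate block (Fdft1 and Sqle). The fatty acid arm's count, also 1, was 0 with the replicate block. Mice with the same number correlated in their deviations from the group means by 0.07 to 0.39 over all genes. For mice with different numbers the range was -0.42 to 0.17. Xist was also alike by number. The labels name no pairing, so none was used in the reported fit, and the replicate block stands as an alternative. Over all genes, an adjusted p under 0.05 was reached by 4 genes with DESeq2 and 1 with Xist as a covariate, an unadjusted p under 0.05 by 1849 with no filter, and an unadjusted p under 0.01, reached by 116 in the reported fit, by 398 with DESeq2 and 282 with no filter.

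With each library left out in turn, these counts over all genes ran from 0 to 1, from 422 to 2498 and from 36 to 613, the sterol arm's count from 0 to 1 and the fatty acid arm's from 0 to 2. The highest overall shares came without control mouse 1 (13.7%) and without treated mouse 2 (14.2%). Ranges that crossed 0 were -0.01048 to 0.18 for Mvd, -0.25 to 0.27 for Idi1, -0.25 to 0.0188 for Msmo1, -0.0278 to 0.09135 for Srebf2, -0.08468 to 0.22 for Insig1, -0.30 to 0.007723 for Srebf1, -0.26 to 0.09499 for Acly, -0.27 to 0.16 for Acaca, -0.30 to 0.11 for Fasn, -0.13 to 0.03294 for Acss2, -0.31 to 0.05914 for Elovl6 and -0.08656 to 0.07218 for Fads1. The upper ends for Srebf1, Acly, Acaca, Fasn, Acss2 and Elovl6 were without control mouse 4. The cause was not tested. Depth limited Fdps most, at 24 reads in its lowest library.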

Other observations

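Per length of gene model, the fatty acid arm was the more abundant of the 2 in control lungs. Its genes ran from 1.42 CPM per 1000 bases for Elovl6 to 888 for Scd1, and those of the sterol arm from 0.603 for Fdps to 31.7 for Srebf2. Within the sterol arm, the transcripts for the regulators Srebf2 and Insig1 (31.7 and 28.4) were above those of every enzyme on this scale. The nearest were Pmvk at 26.3, Hmgcs1 at 22.6 and Ebp at 22.3. Low values included Lss at 3.21, Dhcr7 at 3.09 and Hsd17b7 at 2.18. The scale divides by a gene model length given with the counts and not by the length of 1 transcript, so these ranks depend on annotation.

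The difference between the arms' mean log2 CPM was 2.40, 2.37, 2.40 and 3.12 in control mice 1 to 4 and 2.43, 2.68, 2.29 and 2.41 in treated mice 1 to 4. Control mouse 4 was thus the highest control in the fatty acid arm, while its sterol arm, at 5.04, lay within the other controls (4.94, 5.03 and 5.46). Elovl5 was lower in this mouse than in the other controls. These values were chosen after they were seen and are given as a description.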
